A study of Mus musculus with 24 samples.

Results

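The genes described here are 7 members of the Nodal signalling pathway, taken by symbol from the 16617 genes of the deposited expression table of mouse embryonic stem cells. They are the ligand Nodal, its coreceptor Tdgf1, the receptor Acvr2b, the secreted inhibitors Lefty1 and Lefty2, and the intracellular inhibitors Smad7 and Skil, and all 7 were present. The study measured poly(A) RNA by 3' tag sequencing, in which each transcript gives tags near its 3' end, in 24 samples, 3 for each of the 2 states of 4 cell lines. The lines were MLL3KO_MLL4KO (called the knockout line), MLL3KO_MLL4fl (the floxed line, without MLL3 by its name and with a floxed MLL4 gene), MLL3CD_MLL4CD (the catalytic-dead line) and WT (wild type). MLL3 and MLL4, the products of Kmt2c and Kmt2d, methylate histone H3 at lysine 4 and act at enhancers. Formative cells were collected 63 h after withdrawal of LIF and the inhibitors called 2i, which sustain the naive state. Wild-type and catalytic-dead cells are labelled R1, while the labels give the knockout and floxed cells no parental line. Each genotype was 1 line, so a genotype and other differences between lines cannot be told apart.

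Nodal is a secreted ligand of the TGF-beta family that signals in the early mouse embryo. It binds activin receptors together with the coreceptor Tdgf1, also called Cripto, and the activated receptors phosphorylate Smad2 and Smad3, which enter the nucleus with Smad4. Nodal, Lefty1, Lefty2, Smad7 and Skil are known transcriptional targets of the pathway, and all of these but Nodal restrain it: the Lefty proteins block the ligand and its coreceptor, Smad7 acts on the receptors, and Skil holds back Smads on DNA.

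The deposited table held means per group. Library totals solved from it ran from 4808564 to 15425959 counts, and 23 of the 24 were found. The naive wild-type column averaged 2 libraries. The formative knockout column averaged 4, of which 1 (6919314 counts) also stood in the formative catalytic-dead column. That library correlated across genes at 0.915 or more with the formative catalytic-dead libraries and at 0.836 or less with the formative knockout libraries, and it was taken out of the formative knockout mean. For Smad7 its own count was used. For the other members its count was not recovered and was replaced by the formative catalytic-dead mean, an approximation. Kmt2c was lower in naive floxed cells (23.4 CPM) than in naive wild-type cells (48.8 CPM) by -1.06 log2 (limma adjusted p = 0.0148), and Kmt2d was lower in naive knockout cells (17.6 CPM) than in naive floxed cells (28.8 CPM) by -0.71 (limma adjusted p = 0.00440). In formative cells Kmt2d had 20.2 CPM in the knockout and 25.5 CPM in the floxed line, a difference of -0.34 that did not pass (limma adjusted p = 0.224). Kmt2d was also lower in formative catalytic-dead (20.3 CPM) than in formative wild-type cells (35.7 CPM), by -0.81 (limma adjusted p = 0.00221). Between the naive cells of these lines its difference of -0.07 did not pass (limma adjusted p = 0.866). Since the tags come from the 3' end, which a deletion or a point change elsewhere in the gene can leave in place, these levels are no check of the genotypes.

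Counts of single libraries could be recovered for part of the groups only. They were found for Smad7 in 6 of 8 groups, for Lefty1 and Acvr2b in the 4 naive groups, for Skil in 3 naive groups, for Lefty2 in 2, and for Nodal and Tdgf1 in naive wild-type cells alone. Of the 84 pairs of a member and a comparison, 16 therefore had library values in every group compared and were tested with limma on those values. The other 68 do not have all library values. Their group means are exact except in formative knockout cells. There the mean is approximate for every member but Smad7. The Smad7 mean there depends on the recovered count of the shared library, for which 0.549 sets of counts were expected to fit by chance. The standard errors include neither the approximation nor this uncertainty. These 68 pairs were given a second test, added after the values had been seen. It takes the spread between libraries from those groups of the same gene that have library values. For Nodal and Tdgf1 that spread rests on 1 residual degree of freedom of their own and a prior of 12.3 degrees of freedom (median over genes). A difference passed when its limma adjusted p was under 0.05 (Benjamini-Hochberg over all genes of that test), and rose and fell are used only of such differences. All levels below are CPM, counts scaled to a common library size, back-transformed from mean log2 values, and all differences are log2 CPM. In these bulk samples fewer cells that express a gene and less RNA per cell cannot be told apart.

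Both states were checked against markers. The 9 formative markers summed to 1663 to 2656 CPM in the formative groups and to 128 to 224 CPM in the naive groups, and each was at least 2-fold higher in the formative cells of all 4 lines. The 10 naive markers summed to 509 to 669 CPM in the formative groups and to 2442 to 3002 CPM in the naive groups. At least 2-fold lower in formative cells were 8 of them in the knockout, 10 in the floxed, 10 in the catalytic-dead and 9 in the wild-type line. Of the markers of other cell types, the 5 trophoblast genes in the table summed to 29.1 to 159.6 CPM, the 5 neuroectoderm genes to 51.1 to 145 CPM, the 6 mesendoderm genes summed to 9.83 to 41.8 CPM and the 3 primitive endoderm genes in the table to 3.76 to 52.1 CPM over the 8 groups. Tfap2c alone made up 144 CPM of the highest trophoblast sum, in naive knockout cells, and Cdx2 and Krt7 were at 3.58 CPM or less in every group. The highest neuroectoderm sum, in formative knockout cells, held Sox1 at 46.4 CPM, Tubb3 at 41.7 CPM, Nes at 32.1 CPM and Zic1 at 20.7 CPM. Of the primitive endoderm genes, Gata6 and Gata4 were at 2.30 CPM or less in every group. Dab2, the remaining one, ran from 2.53 CPM in naive floxed to 49.6 CPM in naive catalytic-dead cells.

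The start-site regions of 3 members were in the RefSeq promoter table for GRCm38.p6, the build also called mm10, each with 250 bases before and 50 after the annotated start. Those of Nodal and Tdgf1, the ligand and its coreceptor, are shown because they differ in the motifs searched, a choice made with the matches known. Both genes were lower in formative knockout than in formative floxed cells, and so was Acvr2b, whose region is not printed. The capitals mark TGTNNATT, the letters of a FOXH1-type site, read on either strand. CAGACA, a SMAD-type site, and the palindrome GTCTAGAC were searched in the same way.
Nodal (chr10:61417722-61418021, + strand): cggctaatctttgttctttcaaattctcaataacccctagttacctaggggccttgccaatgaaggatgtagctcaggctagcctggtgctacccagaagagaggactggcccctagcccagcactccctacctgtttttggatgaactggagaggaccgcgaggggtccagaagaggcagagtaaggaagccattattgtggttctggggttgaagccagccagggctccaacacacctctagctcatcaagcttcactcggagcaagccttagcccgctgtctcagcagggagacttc
Tdgf1 (chr9:110946109-110946408, - strand): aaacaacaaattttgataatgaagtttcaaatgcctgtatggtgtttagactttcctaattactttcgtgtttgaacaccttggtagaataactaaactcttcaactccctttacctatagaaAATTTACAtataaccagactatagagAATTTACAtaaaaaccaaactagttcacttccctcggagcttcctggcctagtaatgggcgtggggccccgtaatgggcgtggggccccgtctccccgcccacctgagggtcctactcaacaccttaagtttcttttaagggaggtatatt
The Tdgf1 region held 2 matches of TGTNNATT, both on the strand opposite to the gene, 127 and 101 bases before the start. They did not overlap each other. The Nodal region and the Acvr2b region (chr9:119401928-119402227, + strand) held none of the 3 motifs. Over 32851 such regions of 300 bases, 12.2% held TGTNNATT, 21.0% held CAGACA and 0.213% held GTCTAGAC. A match is a description of the letters and not a measured binding site.

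The first question was how the members changed as naive cells became formative. In all 4 lines Skil and Acvr2b rose. Lefty1 rose 11.7-fold in floxed and 21.6-fold in catalytic-dead cells and by 2.59 log2 in wild-type cells, and did not pass in knockout cells. Lefty2 rose 6.98-fold in catalytic-dead cells and fell 12.8-fold in knockout and 1.69-fold in floxed cells. Nodal fell 4.27-fold in knockout cells and did not pass in the other lines. Of the 7 members 4 passed in the knockout, 4 in the floxed, 5 in the catalytic-dead and 3 in the wild-type line, against 29.3%, 35.9%, 30.4% and 32.1% of all 16469 genes tested.

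**Figure D1:**
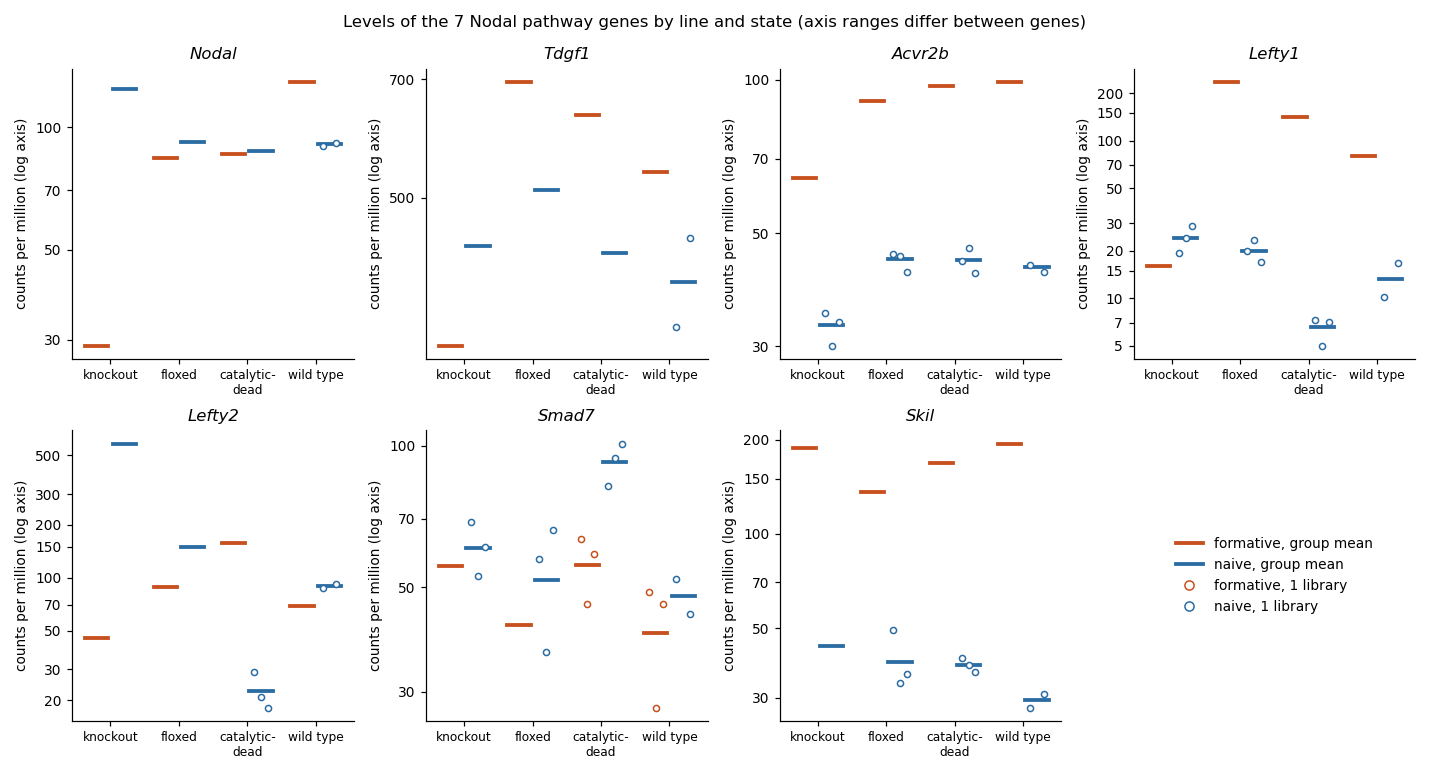
Levels of the 7 members in CPM on a log axis, for the knockout, floxed, catalytic-dead and wild-type lines. Short lines are group means (formative left, naive right) and open points are single libraries where their counts were recovered. Formative knockout cells stand lowest for Nodal (29.0 CPM) and Tdgf1 (329 CPM), and naive knockout cells highest for Lefty2 (581 CPM).

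Nodal (chromosome 10, 61417972 to 61425338, protein coding) stood at 29.0 CPM in formative and 124 CPM in naive knockout cells. It stood at 83.9 CPM in formative and 92.0 CPM in naive floxed cells, and at 85.7 CPM in formative and 87.2 CPM in naive catalytic-dead cells. In wild-type cells it had 129 CPM in the formative group and 89.9 and 91.4 CPM in the 2 naive libraries. Of the 8 groups, 6 thus lay between 83.9 and 124 CPM, formative wild type lay just above them and formative knockout cells lay apart below. Between neighbours in this order, the gap from formative floxed to formative knockout cells (1.53 log2) and that from naive knockout to naive floxed cells (0.43) exceeded their unadjusted 95% intervals, and the other gaps did not. Formative minus naive cells gave -2.10 in the knockout line (SE 0.19, limma adjusted p = 1.39e-06), against -0.13 in the floxed (0.597), -0.02 in the catalytic-dead (0.939) and 0.51 in the wild-type line (0.0612).

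Tdgf1 (chromosome 9, 110939603 to 110946158), the coreceptor that Nodal needs to engage its receptors, stood at 329 CPM in formative and 436 CPM in naive knockout cells. It had 695 CPM in formative and 511 CPM in naive floxed cells, and 633 CPM in formative and 428 CPM in naive catalytic-dead cells. Formative wild-type cells had 538 CPM, and the naive wild-type libraries had 347 and 447 CPM. The formative level was the higher of the pair in 3 lines and the lower in the knockout line, where it was the lowest of all groups. None of the 4 transitions passed, with -0.41 in the knockout (limma adjusted p = 0.245), 0.44 in the floxed (0.181), 0.56 in the catalytic-dead (0.1001) and 0.45 in the wild-type line (0.240), and no gap between neighbours in the order exceeded its interval. Of the 1795 different 50-base stretches in the last 500 bases of the Tdgf1 transcripts, 148 also occur in the pseudogene Tdgf1-ps1, and reads of those bases cannot be assigned to either.

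Acvr2b (chromosome 9, 119402118 to 119434995), a type II activin receptor that binds Nodal and activins, had 64.1 CPM in formative knockout cells and 34.9, 30.1 and 33.5 CPM in the 3 naive knockout libraries. It had 90.9 CPM in formative floxed cells and 42.0 to 45.6 CPM in the naive floxed libraries, 96.9 CPM in formative and 41.7 to 46.7 CPM in naive catalytic-dead cells, and 99.0 CPM in formative and 42.0 and 43.3 CPM in naive wild-type cells. Every formative mean lay above every naive library. Knockout cells were the lowest group of either state. The receptor rose by 0.96 (SE 0.15) in knockout, 1.03 (SE 0.15) in floxed, 1.13 (SE 0.15) in catalytic-dead and 1.21 (SE 0.16) in wild-type cells, with limma adjusted p values of 7.82e-06 to 4.56e-05. All 4 calls were lost when groups without library values were given an SD of 1.0 log2, with adjusted p of 0.135 in knockout, 0.0847 in floxed, 0.0751 in catalytic-dead and 0.0738 in wild-type cells. Over the 4 lines as replicates it rose by 1.08 (SE 0.12, limma adjusted p = 0.000368), where 29.4% of 16596 genes passed.

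Lefty1 (chromosome 1, 180935022 to 180938400) had 16.1 CPM in formative knockout cells and 19.4, 24.2 and 28.6 CPM in the naive knockout libraries. It had 236 CPM in formative floxed cells and 19.8, 23.4 and 16.9 CPM in the naive floxed libraries. Catalytic-dead cells had 142 CPM in the formative group and 7.27, 5.02 and 7.05 CPM in the naive libraries, and wild-type cells had 79.9 CPM in the formative group and 10.3 and 16.7 CPM in the naive libraries. The naive catalytic-dead libraries lay below all other naive libraries, and 3 formative groups lay far above every naive library. The lowest of these values rests on 33 counts, with a 95% Poisson interval of 3.46 to 7.05 CPM that covers counting error only. Lefty1 rose by 3.55 (SE 0.20, limma adjusted p = 7.08e-11) in floxed, 4.43 (SE 0.27, limma adjusted p = 3.89e-10) in catalytic-dead and 2.59 (SE 0.23, limma adjusted p = 4.81e-08) in wild-type cells. In knockout cells the difference was -0.57 (SE 0.22, limma adjusted p = 0.0622). It passed at -0.83 with size factors (adjusted p = 0.00645), at -0.86 with TMM factors (0.00438), without weights (0.0484), with the groups of the comparison alone (0.0287), without naive knockout library a (-0.72, 0.0345) and with the shared library set 0.5 log2 higher (0.0190). It turned to 0.21 (adjusted p = 0.501) with the formative knockout column as deposited.

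Lefty2 (chromosome 1, 180893108 to 180899103), whose gene lies 35918 bases from Lefty1, moved differently. It had 45.4 CPM in formative and 581 CPM in naive knockout cells, and 89.0 CPM in formative and 151 CPM in naive floxed cells. Catalytic-dead cells had 157 CPM in the formative group and 29.0, 21.0 and 18.2 CPM in the naive libraries. Wild-type cells had 68.8 CPM in the formative group and 87.3 and 91.6 CPM in the naive libraries. Naive cells thus held both the highest mean (knockout) and the lowest (catalytic-dead). Lefty2 fell by 3.68 in knockout cells (SE 0.19, limma adjusted p = 7.54e-10) and by 0.76 in floxed cells (SE 0.18, limma adjusted p = 0.00388), and rose by 2.80 in catalytic-dead cells (SE 0.21, limma adjusted p = 5.52e-08). In wild-type cells the difference was -0.38 (limma adjusted p = 0.175). The floxed call was lost with an SD of 1.0 log2 for groups without library values (adjusted p = 0.304). Lefty1 and Lefty2 share sequence near their 3' ends: 186 of 902 stretches of 50 bases of Lefty1 occur in Lefty2 transcripts, and 120 of 824 of Lefty2 in Lefty1 transcripts. Reads of those bases could be given to neither or to the wrong one, so the values of both genes are uncertain to that extent.

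Smad7 (chromosome 18, 75367529 to 75395935), the member with library values in most groups, had 63.5, 46.2 and 58.8 CPM in formative catalytic-dead libraries and 82.2, 94.2 and 101 CPM in naive catalytic-dead libraries. In wild-type cells it had 49.0, 27.8 and 46.1 CPM in formative and 52.1 and 43.8 CPM in naive libraries, which overlapped. It had 55.5 CPM in formative and 52.8 to 68.7 CPM in naive knockout cells, and 41.6 CPM in formative and 36.4 to 66.2 CPM in naive floxed cells. The solutions expected by chance for the Smad7 counts numbered 0.964 in naive knockout, 0.867 in naive catalytic-dead and 0.549 in formative catalytic-dead cells. Elsewhere they numbered 0.32 or less where counts were recovered. The Smad7 library values of those groups are thus less certain than the group means. Smad7 fell by 0.73 in catalytic-dead cells on library values (SE 0.21, limma adjusted p = 0.0109), a call lost without formative catalytic-dead library b, the libraries of a group being lettered by falling depth (-0.59, limma adjusted p = 0.0626). The difference was -0.13 in knockout (0.709), -0.32 in floxed (0.268) and -0.26 in wild-type cells (0.439), the values in parentheses being limma adjusted p. Without naive floxed library b the floxed difference was -0.57 and passed (limma adjusted p = 0.0391). The mean was lower in formative than in naive cells in 4 of 4 lines, and with the lines as replicates the difference of -0.36 did not pass (limma adjusted p = 0.0879, and 0.0164 at -0.52 with size factors).

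Skil (chromosome 3, 31095058 to 31122577) had 188 CPM in formative and 43.7 CPM in naive knockout cells. It had 136 CPM in formative floxed cells and 49.3, 33.4 and 35.8 CPM in naive floxed libraries, 169 CPM in formative and 36.1 to 40.02 CPM in naive catalytic-dead cells, and 194 CPM in formative and 27.9 and 30.9 CPM in naive wild-type cells. The formative means and the naive values did not overlap, and all gaps between neighbours within a state lay inside their unadjusted 95% intervals. Skil rose by 2.10 (SE 0.17) in knockout, 1.80 (SE 0.18) in floxed, 2.14 (SE 0.18) in catalytic-dead and 2.72 (SE 0.20) in wild-type cells, with limma adjusted p values of 1.14e-08 to 3.24e-07. Over the lines it rose by 2.19 (SE 0.16, limma adjusted p = 5.89e-05). Lefty1 also passed over the lines (2.499, SE 0.64, limma adjusted p = 0.0183), with a higher formative mean in 3 of 4, while Nodal, Lefty2 and Tdgf1 gave -0.44, -0.50 and 0.26 and did not pass. Without the wild-type, floxed or catalytic-dead line Lefty1 no longer passed (limma adjusted p of 0.0766, 0.0940 and 0.0870), and without the knockout line it gave 3.52 (limma adjusted p = 9.01e-06). Tdgf1 passed without the knockout line (0.49, limma adjusted p = 0.0118).

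**Figure D2:**
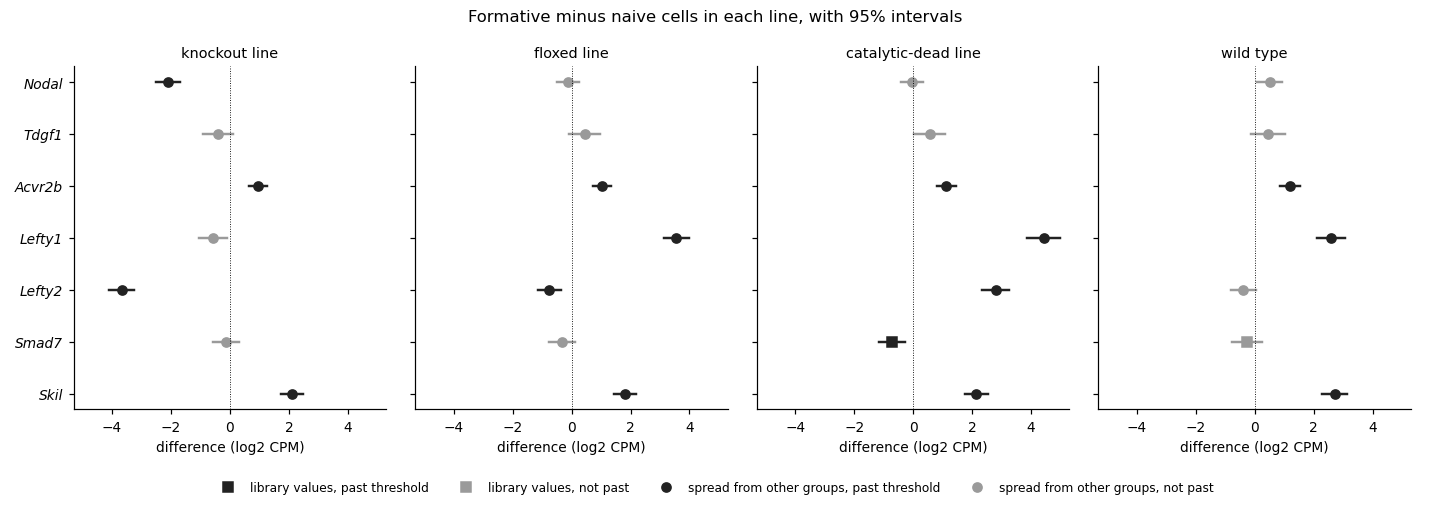
Formative minus naive difference in log2 CPM (x axis) of each member in the knockout, floxed, catalytic-dead and wild-type line, with 95% intervals. Squares were tested on library values and circles with the spread from other groups, and dark symbols passed. Acvr2b and Skil lie to the right of 0 in all 4 lines, while Nodal lies to the left (-2.10) in the knockout line.

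In formative cells the knockout line, which lacks MLL4 as well as MLL3 by its name, was set against the floxed line. Lefty1 fell 14.6-fold, to 16.1 CPM in formative knockout cells against 236 CPM in formative floxed cells. Nodal fell 2.89-fold, Tdgf1 2.11-fold, Lefty2 1.96-fold and Acvr2b 1.42-fold. The inhibitors inside the cell did not pass, with 0.46 for Skil (limma adjusted p = 0.0697) and 0.41 for Smad7 (0.199). Of the 7 members 5 fell and 0 rose by limma (1, Skil, at an unadjusted p under 0.05), where 19.5% of all genes passed, 7.33% lower and 12.2% higher. The median difference was -0.97 over the members and 0.07 over all genes.

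All of these calls rest on the second test, since no member had library values in both formative groups. Lefty1 gave -3.87 (SE 0.22, limma adjusted p = 9.71e-11), Nodal -1.53 (SE 0.19, limma adjusted p = 6.96e-05), Tdgf1 -1.08 (SE 0.24, limma adjusted p = 0.00662), Lefty2 -0.97 (SE 0.19, limma adjusted p = 0.00189) and Acvr2b -0.50 (SE 0.15, limma adjusted p = 0.0187). With the formative knockout column as deposited, Lefty1 had 27.8 CPM in formative knockout cells and its difference was -3.09, still past the threshold, while Lefty2 (-0.52, adjusted p = 0.0876) and Acvr2b (-0.35, adjusted p = 0.132) no longer passed. With the shared library set 0.5 log2 lower, Acvr2b gave -0.34 (0.106) and Skil passed at 0.63 (0.0147). When groups without library values were given an SD of 1.0 log2, only Lefty1 passed of these 5 (adjusted p = 6.19e-06). The 4 fibroblast markers in the table, of 6 listed, summed to 647 CPM in formative knockout and to 26.7 CPM in formative floxed cells. Acta2, a smooth muscle actin, made up 637 CPM of the knockout sum, while Col1a1 and Col1a2 were at 3.61 and 6.29 CPM and Thy1 at 0.336 CPM there. The part of such cells in the members' differences was not tested.

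In naive cells the same lines differed in 1 member, where 18.3% of all genes passed. Lefty2 rose 3.86-fold, to 581 CPM in naive knockout against 151 CPM in naive floxed cells (1.95, SE 0.19, limma adjusted p = 1.28e-06). Lefty1, its paralog, gave 0.26 on library values (SE 0.21, limma adjusted p = 0.457), and the libraries of the 2 lines overlapped. Acvr2b had 30.1 to 34.9 CPM in the naive knockout libraries and 42.0 to 45.6 CPM in the naive floxed libraries. The difference of -0.43 did not pass (limma adjusted p = 0.0525). Its limma adjusted p was 0.0384 under a stricter filter, 0.0451 without weights and 0.174 at most under the other alternatives. Nodal gave 0.43 (limma adjusted p = 0.113), Smad7 0.22 (0.551), Skil 0.16 (0.629) and Tdgf1 -0.23 (0.612). The fibroblast markers summed to 98.2 CPM in naive knockout and 10.8 CPM in naive floxed cells, again mostly from Acta2 (95.9 CPM in knockout cells). The primitive endoderm markers summed to 26.8 CPM in naive knockout and 3.76 CPM in naive floxed cells, of which Dab2, an endocytic adaptor gene, made up 24.9 CPM in knockout cells. The part of these markers was not tested.

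The change from naive to formative cells itself differed between the knockout and the floxed line for 3 members, where 10.4% of all genes passed. The difference of the transitions was -4.13 for Lefty1 (SE 0.30, limma adjusted p = 2.29e-08), -2.92 for Lefty2 (SE 0.27, limma adjusted p = 3.26e-06) and -1.96 for Nodal (SE 0.26, limma adjusted p = 0.000224). With the formative knockout column as deposited the Lefty1 difference was -3.34, still past the threshold. With an SD of 1.0 log2 for groups without library values Nodal no longer passed (adjusted p = 0.159). The difference was -0.85 for Tdgf1 (limma adjusted p = 0.142). For Skil it was 0.30 with a 95% interval of -0.22 to 0.83, for Acvr2b -0.07 with an interval of -0.51 to 0.36, and for Smad7 0.19 with an interval of -0.44 to 0.82, none of which passed.

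**Figure D3:**
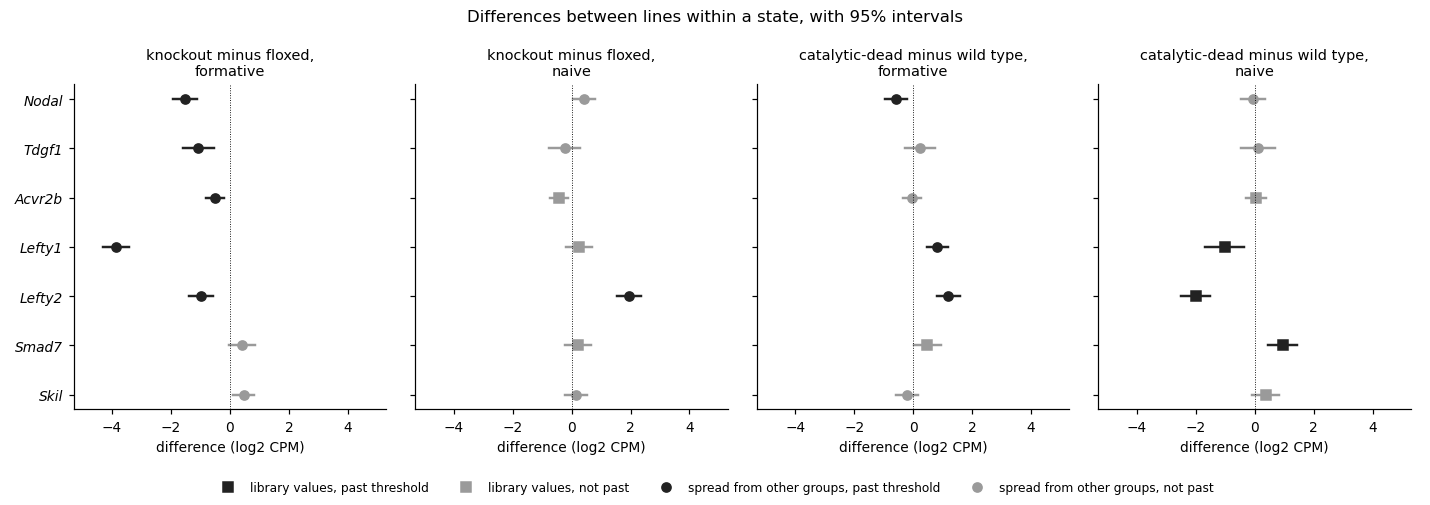
Difference in log2 CPM (x axis) between lines within a state, with 95% intervals: knockout minus floxed and catalytic-dead minus wild type, formative left and naive right of each pair. Squares were tested on library values, circles with the spread from other groups, and dark symbols passed. In formative knockout cells 5 members lie below 0, while Lefty2 lies above 0 in naive knockout (1.95) and below it in naive catalytic-dead cells (-1.99).

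The catalytic-dead line, whose MLL3 and MLL4 are present by name but lack catalysis, was set against wild type. In naive cells Lefty2 fell 3.99-fold, to 18.2 to 29.0 CPM in catalytic-dead against 87.3 and 91.6 CPM in wild-type libraries. Lefty1 fell 2.03-fold, to 5.02 to 7.27 CPM against 10.3 and 16.7 CPM, and Smad7 rose 1.92-fold, to 82.2 to 101 CPM against 43.8 and 52.1 CPM. For each of the 3 the libraries of the lines did not overlap, with 2 wild-type and 3 catalytic-dead libraries. The share of all genes without overlap is not given here, so this adds no support. These 3 of 7 members passed, where 12.5% of all genes did, and each was tested on library values. For the Smad7 counts in naive catalytic-dead cells 0.867 solutions were expected by chance, so those library values are less certain. The differences were -1.99 for Lefty2 (SE 0.23, limma adjusted p = 3.86e-05), -1.02 for Lefty1 (SE 0.31, limma adjusted p = 0.0375) and 0.94 for Smad7 (SE 0.24, limma adjusted p = 0.0104). The Lefty1 call was lost without wild-type library b (-0.67, limma adjusted p = 0.237), without catalytic-dead library a, b or c (adjusted p of 0.0797, 0.135 and 0.0712) and with the groups of the comparison alone (0.0948), whereas those of Lefty2 and Smad7 kept an adjusted p of at most 0.0468 under every alternative run. Nodal (-0.06), Tdgf1 (0.12), Skil (0.37) and Acvr2b (0.05) did not pass. The 3 primitive endoderm markers summed to 52.1 CPM in naive catalytic-dead and 4.81 CPM in naive wild-type cells, and the 4 fibroblast markers to 43.9 CPM in catalytic-dead and 7.996 CPM in wild-type cells. In catalytic-dead cells Dab2 alone made up 49.6 CPM and Acta2 alone 40.4 CPM of these sums. Their part in the members' differences was not tested.

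In formative cells both Lefty genes differed from wild type in the other direction. Lefty2 rose 2.28-fold, to 157 CPM in catalytic-dead against 68.8 CPM in wild-type cells (1.19, SE 0.18, limma adjusted p = 0.000522), and Lefty1 rose 1.77-fold, to 142 CPM against 79.9 CPM (0.83, SE 0.17, limma adjusted p = 0.00370). Nodal fell 1.51-fold, to 85.7 CPM in catalytic-dead against 129 CPM in wild-type cells (-0.59, SE 0.17, limma adjusted p = 0.0431, and 0.0513 without weights). Of the 7 members these 3 passed, by the second test, where 11% of all genes did, and none of them passed with an SD of 1.0 log2 for groups without library values. Smad7 had 46.2 to 63.5 CPM in catalytic-dead and 27.8 to 49.0 CPM in wild-type libraries, which overlapped (0.48, limma adjusted p = 0.165). The fibroblast markers summed to 78.9 CPM in formative catalytic-dead and 22.5 CPM in formative wild-type cells, with Acta2 at 64.8 CPM in catalytic-dead cells. The 6 mesendoderm markers summed to 9.83 CPM in formative catalytic-dead and 41.8 CPM in formative wild-type cells, with Eomes at 3.76 CPM in catalytic-dead and 21.1 CPM in wild-type cells. The part of these markers was not tested. The transitions of the 2 lines differed by 3.18 for Lefty2 (SE 0.29, limma adjusted p = 1.34e-05) and 1.84 for Lefty1 (SE 0.36, limma adjusted p = 0.00477, and 0.265 with an SD of 1.0 log2), where 4.04% of all genes passed. For Nodal that difference was -0.54 with a 95% interval of -1.10 to 0.03, and for Smad7 -0.46 with an interval of -1.12 to 0.20, and neither passed.

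The floxed line, without MLL3, was set against wild type, from which it may differ in other ways as a separate line. In formative cells Lefty1 rose 2.95-fold, to 236 CPM in floxed against 79.9 CPM in wild-type cells (1.56, SE 0.17, limma adjusted p = 4.04e-06). Nodal fell 1.54-fold, to 83.9 CPM against 129 CPM (-0.63, SE 0.17, limma adjusted p = 0.0321). These 2 of 7 passed, where 11.7% of all genes did. Skil gave -0.51 (limma adjusted p = 0.0651, and 0.0478 at -0.54 with size factors), and with an SD of 1.0 log2 Lefty1 alone passed. The mesendoderm markers summed to 11.9 CPM in formative floxed and 41.8 CPM in formative wild-type cells, with Eomes at 4.68 CPM in floxed and 21.1 CPM in wild-type cells, and their part was not tested. In naive cells 1 member passed, where 5.29% of all genes did: Lefty2 rose 1.68-fold, to 151 CPM in floxed against 89.6 CPM in wild-type cells (0.75, SE 0.20, limma adjusted p = 0.0450). That call was lost without weights (0.0623), without wild-type library a (0.0823), with the groups of the comparison alone (0.231) and with an SD of 1.0 log2 (0.618). Each group enters several of these comparisons, so they share samples.

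The ratio of the 2 Lefty genes gives the same values in another form. Lefty2 stood above Lefty1 by a factor of 2.81 in formative and 24.2 in naive knockout cells. In floxed cells Lefty1 stood 2.65-fold above Lefty2 in the formative group, while Lefty2 stood 7.501-fold above Lefty1 in the naive group. Catalytic-dead cells had a Lefty2 to Lefty1 factor of 1.11 in formative and 3.42 in naive cells, and wild-type cells had 0.861 in formative and 6.73 in naive cells. Lefty2 thus outweighed Lefty1 in all 4 naive groups, and the ratio was smaller in the formative cells of every line.

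A list of 47 other genes of the Nodal and activin pathway was examined by role, of which 39 were analysed here. In formative knockout against floxed cells 13 rose and 2 fell, where 12.2% of all genes rose and 7.33% fell, with a median of 0.25 over the 39 genes against 0.07 over all genes. Of 5 ligands 3 rose: Tgfb2 to 27.9 CPM against 2.45 CPM (3.51), Inhba, which encodes an activin subunit, to 8.49 CPM against 1.04 CPM (3.03), and Gdf3, a relative of Nodal, to 176 CPM against 83.3 CPM (1.08). Of 4 receptors Tgfbr2 rose by 2.11, and of 5 Smads and partners Smad4 rose by 0.67 and Smad2 by 0.56. Of 16 inhibitors 4 rose and 1 fell, among them Fst, which binds activin (2.43, 26.6 CPM against 4.93 CPM), Tmeff2 (1.44) and Dact2 (-1.003). The 2 convertases did not pass.

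Of the 7 targets analysed in that comparison 3 rose and 1 fell. T, or Brachyury, a mesoderm transcription factor gene, fell by 1.90, to 0.636 CPM in formative knockout against 2.37 CPM in formative floxed cells. Foxa2, an endoderm transcription factor gene, rose by 1.96, to 1.25 CPM against 0.322 CPM, and Cdkn1a, which encodes a cell cycle inhibitor, rose by 1.76, to 336 CPM against 99.4 CPM. The Foxa2 level in formative floxed cells lay near the lowest deposited value of -2.29 log2. That level and the T level in formative knockout cells rest on few counts. In naive knockout against floxed cells 8 of the 39 genes rose and 5 fell, where 18.3% of all genes passed. Among the targets there Eomes fell by 2.85, to 1.81 CPM in knockout against 13.1 CPM in floxed cells, while Foxa2 rose by 2.75 and Tagln, an actin-binding protein gene, by 1.96. The difference of transitions, knockout minus floxed, passed above 0 for 7 of the 39 genes and below 0 for 1, where 10.4% of all genes passed. Above 0 were 3 of 5 ligands, 3 of 16 inhibitors and 1 of 7 targets. Below 0 was 1 of 5 Smads and partners. The target was Eomes, with a difference of 3.40 (SE 0.52, limma adjusted p = 7.60e-05).

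**Figure D4:**
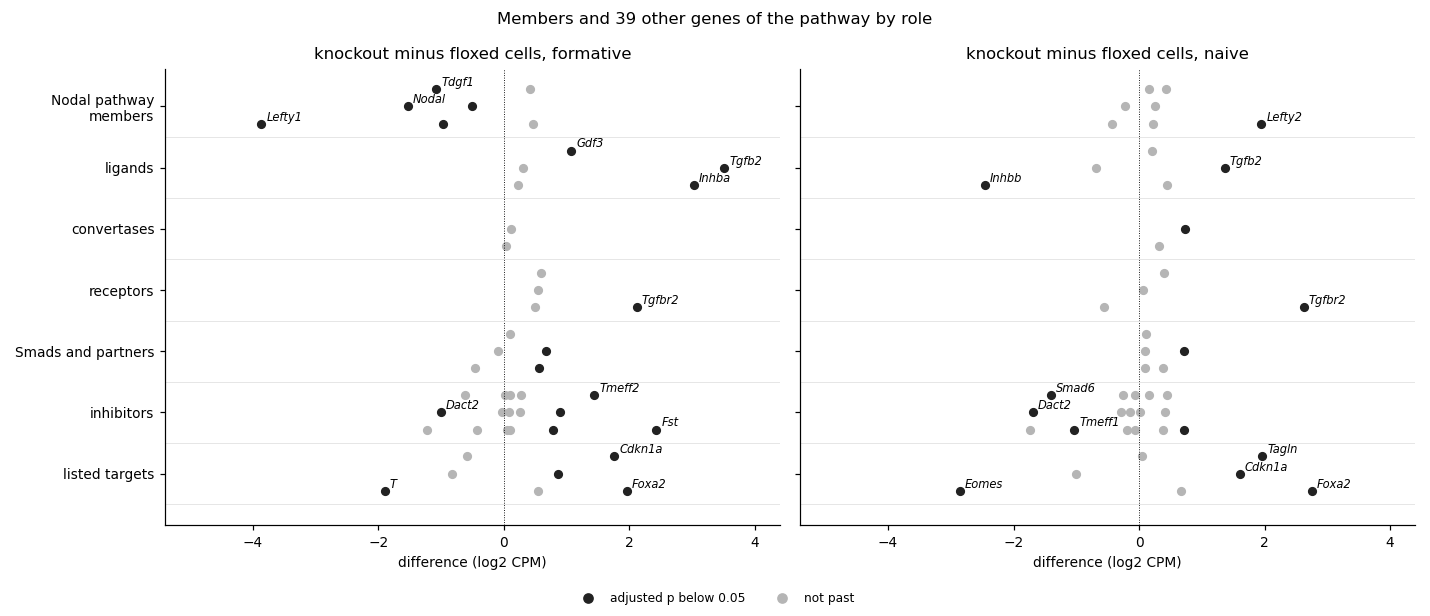
Knockout minus floxed difference in log2 CPM (x axis) of the 7 members and the 39 other pathway genes in the table, in rows by role, for formative cells (left) and naive cells (right). Dark points passed, and those over 1 log2 are named. In formative cells the members that passed lie below 0 and the ligands that passed (Tgfb2, Inhba, Gdf3) above it.

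On the transition itself, 14 of the 39 genes rose and 5 fell in the knockout, 7 rose and 8 fell in the floxed, 6 rose and 5 fell in the catalytic-dead, and 13 rose and 6 fell in the wild-type line. Of all genes 29.3% passed in the knockout, 35.9% in the floxed, 30.4% in the catalytic-dead and 32.1% in the wild-type line. Inhbb, another activin subunit gene, fell in the floxed (-3.49), catalytic-dead (-3.57) and wild-type lines (-2.52). It ended at 0.326 CPM in formative floxed and 0.281 CPM in formative catalytic-dead cells, near the lowest deposited value, and at 1.09 CPM in formative wild-type cells. The convertase gene Pcsk6, whose product can cleave the Nodal precursor, fell in all 4 lines, by 1.604 in the knockout, 0.99 in the floxed, 1.42 in the catalytic-dead and 1.03 in the wild-type line. Eomes, a mesendoderm transcription factor gene, rose in knockout (1.91) and wild-type cells (1.63) and fell in floxed (-1.48) and catalytic-dead cells (-2.35).

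Between catalytic-dead and wild-type cells 2 of the 39 genes rose and 5 fell in the formative state, where 11% of all genes passed, and 1 rose and 1 fell in the naive state, where 12.5% did. Eomes fell in formative cells, to 3.76 CPM in catalytic-dead against 21.1 CPM in wild-type cells (-2.49), and rose in naive cells, to 19.1 CPM against 6.83 CPM (1.49). T fell in formative catalytic-dead cells, to 1.24 CPM against 7.58 CPM (-2.61). Between floxed and wild-type cells 0 of the 39 passed in the naive state by limma, with 4 higher and 3 lower at an unadjusted p under 0.05. The share of all genes that passed was 11.7% in the formative and 5.29% in the naive state. In the formative state 3 rose and 5 fell, and among the targets Eomes (-2.18), Foxa2 (-2.08) and T (-1.68) differed most. Foxa2 had 0.322 CPM in formative floxed and 1.36 CPM in formative wild-type cells, near the lowest deposited value of -2.29 log2, so it rests on few counts.

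Likeness was measured as the Pearson correlation of the 8 group means, which share libraries and come from 8 points, among 11133 genes whose means spanned at least 1 log2. The 3 genes most like Skil were Qser1, Jag2 and Sema3c (r of 0.990 for each), those most like Acvr2b were Adarb1, Clca4a and Alx1 (0.994, 0.992 and 0.990), and those most like Lefty1 were Tmem63a, Il18 and Gm12900 (0.983, 0.972 and 0.972). Tdgf1 was closest to Sema3f, Gm15730 and Ndufa7 (0.970, 0.967 and 0.952), Smad7 to Myl12b, Mylip and Stag1 (0.974, 0.954 and 0.951), Nodal to Tyms-ps, Gm43322 and Gm9531 (0.964, 0.937 and 0.917), and Lefty2 to Pxylp1, Adgrb1 and Dkk3 (0.916, 0.893 and 0.885). Among the members themselves, Skil and Acvr2b had r = 0.886, Lefty1 and Tdgf1 0.851, Lefty1 and Acvr2b 0.801, Nodal and Lefty2 0.433, Lefty1 and Lefty2 0.285 and Lefty1 and Smad7 -0.664.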

How the data were processed

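Per the labels' protocols, total RNA (200 ng) from Trizol was made into QuantSeq 3' FWD libraries and sequenced single-end for 50 bases. Replicates were separate cultures, per the series' design text. Per the submitters' processing notes, the tools were FastQC 0.11.8, MultiQC, cutadapt 2.5, STAR, featureCounts, Subread 1.6.4 and DESeq2 1.34.0, with the build mm10. Strand and multi-mapping settings of the counting are not given in the sources used here.

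The deposited table holds log2 CPM values per gene, averaged by the authors within each group, to 9 decimals. Its low values show that the logarithm was taken after adding a prior count of 2 (in proportion to library size), so differences of low genes are understated. The CKO columns were taken for the floxed line.

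Because the table gives means where the design assumed values per library, whole counts were searched that give each mean. Library totals came out whole to within 0.0425. Counts were accepted where 1 solution lay within 1.0 log2 of the mean (4 Poisson SD for low counts) and at most 1 was expected by chance. This held for 64.3% of genes in all groups, and in each single group for 98.2% or more of those whose mean did not exceed 100 counts. The window limits how far apart libraries of a group can lie. Recovery and both tests were run on simulated data in which all genes and groups had the same spread beyond counting error. The median SD between the real libraries ran from 0.264 log2 in naive wild-type to 0.396 log2 in naive floxed cells. The simulation therefore does not cover genes or groups of larger or unequal spread.

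Limma 3.58.1 (R 4.3.3) was run as 1 model of the 8 groups, with weights from a lowess trend (span 0.3), on genes at or above the CPM of 10 counts in a library of median size in at least 3 libraries. The second test and the line-blocked test on group means also used limma's moderated spread. Python 3.11.15 was used for the recovery. Gene coordinates are from GENCODE on GRCm38. Alternatives were other scalings, filters, weights and prior counts, left-out libraries or lines, and the formative knockout column as deposited. The second test, the shifted shared library and the SD of 1.0 log2 were added after the values had been seen.

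The members and lists were chosen with earlier results of these data known. All 7 members are given, and of the other pathway genes that passed at most the 3 largest differences per role. Of the listed genes, 8 were not analysed here, and a further one fixed with them is not reported here.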

Additional observations from a re-analysis of the deposited data

Results flagged for a closer look

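For 5 results the effect of one contrast differed between lines by a test of the difference itself. The change from naive to formative cells differed between the knockout and floxed lines by -4.13 log2 for Lefty1, -2.92 for Lefty2 and -1.96 for Nodal (limma adjusted p of 2.29e-08, 3.26e-06 and 0.000224). Between the catalytic-dead and wild-type lines it differed by 3.18 for Lefty2 and 1.84 for Lefty1 (limma adjusted p of 1.34e-05 and 0.00477). With the formative knockout column as deposited the Lefty1 value was -3.34. All 5 used the spread from other groups. With an SD of 1.0 log2 for groups without library values, Nodal (adjusted p = 0.159) and the catalytic-dead difference of Lefty1 (adjusted p = 0.265) no longer passed. No group had enough libraries to look for a library far from the others.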

How the results depend on the processing

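No paired analysis was possible because the columns carry no replicate numbers. Settings of scaling, filter, prior count and left-out libraries kept the direction of all differences that passed. Of the 32 calls of the second test, 16 were lost when groups without library values were given an SD of 1.0 log2. Under that setting the number of members past the threshold became 3 for the knockout, 2 for the floxed, 4 for the catalytic-dead and 2 for the wild-type transition, 1 for formative knockout against floxed cells, 0 for formative catalytic-dead against wild type, 0 and 1 for naive and formative floxed against wild type, 2 for the difference of transitions of knockout and floxed, and 1 for that of catalytic-dead and wild type. With the formative knockout column as deposited, 3 members passed in formative knockout against floxed cells. In naive knockout against floxed cells 2 of 7 members passed with a stricter filter and 2 without weights, and 1 of those with library values in each. In naive floxed against wild-type cells 0 passed without weights and 0 with the groups of the comparison alone. Leaving out libraries gave 0 to 1 members past the threshold with library values in the catalytic-dead transition.

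The direction turned for differences that had not passed. With size factors Tdgf1 and Acvr2b became -0.0204 and -0.0914 in the naive catalytic-dead comparison (-0.0157 and -0.0868 with TMM), and Nodal became -0.00709 in naive floxed against wild type. With the deposited column Lefty1 became 0.21 in the knockout transition and Acvr2b 0.0748 in the difference of transitions of knockout and floxed (0.0923 with the shared library set 0.5 log2 lower). Over left-out libraries Smad7 ran from -0.0615 to 0.37 in naive and -0.20 to 0.21 in formative floxed against wild type, and from -0.0286 to 0.40 in naive knockout against floxed cells. Over left-out lines the state effect ran from -0.75 to 0.12 for Nodal and from -1.61 to 0.55 for Lefty2. Size factors shifted the median of all genes by -0.26 in the knockout, -0.15 in the floxed, -0.08 in the catalytic-dead and -0.15 in the wild-type transition, and by -0.14 between the naive catalytic-dead and wild-type lines. The cause of these changes was not tested. In groups of 3 libraries the highest mean count resolved into library values was 712. Library values were also missing below that count where more than 1 set of counts fitted, as for Nodal in naive catalytic-dead cells. For the members other than Smad7 they were missing in formative knockout cells because the count of the shared library was not recovered. These gaps limit the tests of Nodal, Tdgf1 and Lefty2, and those of Lefty1, Skil and Acvr2b that involve formative cells. They also limit those of Smad7 with formative knockout or floxed cells and those of Skil with naive knockout cells.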
